A study of Mus musculus with 14 samples.

Results

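The cells described here were 365 of the 1637 cells recovered from the mouse cochlea at embryonic day 14 (E14), or 22.3% of them, out of 5441 cells in the series. Each had at least 1 UMI (unique molecular identifier, one counted RNA molecule) of Runx1 and at least 1 of Lypd1, so the cells were chosen by the measured levels of these genes, which are given as a description only. They numbered 137 in E14 replicate 1, 68 in replicate 2 and 160 in replicate 3. Of the other E14 cells, 296 had Lypd1 only, 210 had Runx1 only and 766 had neither, and members were compared with these classes within each library.

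The study profiled single spiral ganglion cells of CD1 mice by 10x single-cell RNA sequencing at E14, E16, E18 and postnatal day 1 (P1). The E14 cells, all 4 classes alike, came from whole ganglia with no treatment or allele listed, dissociated with trypsin and pooled, in 3 replicates from separate litters. At E16 the ganglion was divided into apical and basal portions and again dissociated with trypsin, in 3 replicates, and at E18 and P1 papain was used on whole ganglia, in 3 and 2 replicates. The dissection left some sensory epithelium and mesenchyme attached.

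Spiral ganglion neurons carry sound information from hair cells to the brainstem. Type I neurons contact inner hair cells and in the adult form the subtypes IA, IB and IC, while the rarer type II neurons contact outer hair cells. Runx1, a transcription factor of the RUNT family that acts with core binding factor beta, and Lypd1, a membrane-anchored protein of the Ly6 family that binds nicotinic acetylcholine receptors, mark IB and IC neurons later in life, together with the calcium buffer Pvalb. Neuroblasts delaminate from the otic epithelium under basic helix-loop-helix factors such as Neurod1, go on dividing and leave the cell cycle afterwards in the forming ganglion, so that young neurons of several ages can stand side by side there.

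RUNX proteins bind a short core, which makes the starts of the 2 genes that define these cells of interest. RefSeq lists 2 promoters for Runx1 and 3 for Lypd1, and for each gene 1 of them held the letters searched and the others held none. The promoters below, shown because they are the ones with a match, hold the letters TGTGGT or, on the other strand, ACCACA, which are shown in capitals. They run 5′ to 3′ from 250 bases before to 50 bases after a gene start (RefSeq, GRCm38.p6), and both lie on the minus strand. The Runx1 promoter at chr16:92826025-92826324 held 2 matches, beginning 29 and 37 bases into the transcript, and the Lypd1 promoter at chr1:125912165-125912464 held 1 match, 51 bases before the start.
Runx1: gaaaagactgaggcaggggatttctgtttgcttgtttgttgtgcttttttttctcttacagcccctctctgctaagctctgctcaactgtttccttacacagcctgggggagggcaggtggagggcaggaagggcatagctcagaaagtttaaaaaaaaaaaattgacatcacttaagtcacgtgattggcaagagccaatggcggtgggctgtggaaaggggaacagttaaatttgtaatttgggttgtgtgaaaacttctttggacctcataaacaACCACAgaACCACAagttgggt
Lypd1: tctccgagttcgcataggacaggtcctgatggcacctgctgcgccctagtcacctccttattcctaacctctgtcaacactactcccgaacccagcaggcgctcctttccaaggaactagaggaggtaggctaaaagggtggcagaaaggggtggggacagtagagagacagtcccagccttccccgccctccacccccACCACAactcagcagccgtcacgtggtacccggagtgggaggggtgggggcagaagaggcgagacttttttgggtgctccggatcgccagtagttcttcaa
The same letters stood in 16.8% of all 32851 promoters of this length and in at least 1 promoter of 18.9% of 27025 genes. They stood in 0 of the 10 genes with a listed promoter among those named below as higher in the members, and in 1 of 7 among those named as lower. These matches describe letters and show no binding.

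The label was checked against cell type markers. The 7 genes of the IB/IC list other than Runx1 and Lypd1 summed to 3338, 3433 and 3820 CPM (counts per 1000000 UMIs of the summed cells) in the members of the 3 libraries, against 1947, 1166 and 1759 CPM in cells with neither gene, so the ranges did not overlap. Most of this gap lay in Pvalb and Lgals1, at means of 2264 and 432 CPM in members and 760 and 124 CPM in cells with neither. Pvalb also went with neuronal age: it was found in 33.8% of nascent-marked cells, defined below, and in 96.9% of the other E14 cells. Without nascent-marked cells it stood at 2308, 2398 and 2603 CPM in members and at 1808, 1474 and 1980 CPM in cells with neither. Lgals1 did not keep its direction at later ages, as given below. Of these 7 genes 5 were tested, and Pvalb, Lgals1 and Calb1 were higher. Pou4f1, a POU-homeodomain factor that is also on the list, did not separate the classes: it stood at 269, 281 and 275 CPM in members and at 266, 288 and 291 CPM in cells with neither (log2 difference -0.08, edgeR adjusted p = 0.59). Genes of the IA list were not low: the 8 summed to 443, 378 and 432 CPM in members against 307, 202 and 225 CPM in cells with neither. Of 5 tested, Mdga1 and Rxrg were higher and Prox1 was lower. Calb2, a calcium-binding protein of IA neurons, and Pcdh20 had 0 counts in the members, but Calb2 had only 5 counts in the cells with neither and neither gene was tested. In the type II list the 5 tested, among them Gata3, Prph and Etv4, were all higher in the members. Over all genes tested in this comparison, 7.89% were higher and 8.49% lower. Without nascent-marked cells 0 of the 5 type II genes passed (median log2 difference -0.10), and between cells matched on depth 2 of 5 were higher. Of the IB/IC list 2 of 5 tested, and of the IA list 1 of 4, were higher without nascent-marked cells, and 0 were lower. Of the general neuron list, 2 of 10 tested were higher and 4 lower. Of the spiral ganglion list, 2 of 10 were higher and 5 lower (median log2 difference -0.40). Without nascent-marked cells 1 neuron gene was lower and 0 higher, and 0 of 9 spiral ganglion genes passed. In the glia, otic mesenchyme and supporting epithelium lists, 1, 4 and 2 genes were tested. Of these, 1 otic mesenchyme gene was lower and 0 were higher. The cells are therefore named here by their rule, as Runx1+ Lypd1+ cells, and not as a mature subtype.

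The E14 libraries held 524, 379 and 734 cells, with medians of 4986, 5221 and 4762 UMIs per cell. Members were deeper than cells with neither gene, at medians of 5774 and 4341 UMIs. Macrophage and blood progenitor genes summed to 5.76 to 8.44 CPM in members, with C1qa, Ptprc, Spi1 and Gata1 at 0, and endothelial genes to 1.92 to 2.20 CPM, with Flt1 at 0. Hair cell genes moved with the classes: the 6 summed to 44.3 to 68.2 CPM in members, with Atoh1 and Myo7a at 0, and to 219 to 286 CPM in cells with neither, with Myo7a and Gfi1 at 0. Both tested, Myo6 (log2 difference -2.06) and Ccer2 (-3.46), were lower in the members. Without nascent-marked cells, defined below, the sums were 14.99 to 49.7 CPM and 41.9 to 66.0 CPM, and the 1 gene tested, Myo6, did not pass. Haemoglobin and related red blood cell genes varied most, from 211 to 1382 CPM in members and from 447 to 1463 CPM in cells with neither. The part of hair cell and red blood cell RNA in the results was not tested. No cell barcode was shared between E14 libraries, and 1 member carried a barcode that was also found at another stage.

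Most members sat close to the limit of the rule. Runx1 was seen as 1 UMI in 201 members, or 55.1%, as 2 or 3 UMIs in 140 and as 4 or 5 UMIs in 24. Lypd1 was seen as 1 UMI in 98 members, as 2 or 3 in 131 and as 4 to 17 in 136. Just inside the rule, 61 members had 1 UMI of each gene, and just outside it 118 cells had 1 Lypd1 UMI with no Runx1 and 153 had 1 Runx1 UMI with no Lypd1. Lgals1, a secreted galectin, stood at 395, 203 and 436 CPM in the first of these sets, at 391, 420 and 298 CPM in the second and at 216, 104 and 275 CPM in the third. Within the members, Lgals1 was 375, 147 and 364 CPM in those with 1 Lypd1 UMI, 293, 206 and 485 CPM in those with 2 or 3, and 606, 467 and 706 CPM in those with 4 or more. The last set was the highest in each of the 3 libraries, while the middle set lay below the first in replicate 1.

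Runx1+ Lypd1+ cells made up 26.1%, 17.9% and 21.8% of the cells in E14 replicates 1 to 3, with exact 95% binomial intervals of 22.4 to 30.1%, 14.2 to 22.2% and 18.9 to 25.0% that cover counting error only. When each cell was thinned at random to 2500 UMIs, leaving 508, 370 and 713 cells deep enough, the shares fell to 10.2%, 4.86% and 9.54%. Of the cells with Runx1, 66.2%, 61.8% and 62.0% also had Lypd1, against 33.4%, 25.7% and 25.4% of the cells without it. After thinning, these shares were 47.7%, 34.6% and 45.6% against 27.8%, 26.4% and 23.4%, so the direction was the same in the 3 libraries and the gap was narrowest in replicate 2. Among thinned cells without signs of recent birth, described next, the shares were 49.5%, 46.2% and 53.2% against 33.6%, 56.4% and 39.3%, and replicate 2 then went the other way.

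Members and the E14 cells with neither gene differed in neuronal age markers. A cell was called nascent-marked when Neurod1, Nhlh1, Eya2, Ppp1r17 and Mfap4, used here as markers of newborn neurons, summed to at least 2 UMIs. Such cells made up 13.1%, 22.1% and 10.0% of the Runx1+ Lypd1+ cells in the 3 libraries and 47.9%, 86.0% and 69.6% of the cells with neither gene, or 49 of 365 against 520 of 766 in all. The 49 nascent-marked members were deep, at a median of 8290 UMIs against 5542 in the other members. The 520 nascent-marked cells with neither gene had a median of 4020 UMIs. Doublets were not called, and the part of depth or doublets in these 49 cells was not tested. Cells with Lypd1 only held 54 nascent-marked cells of 296 and cells with Runx1 only 69 of 210. The plot of class shares shows this order.

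**Figure D1:**
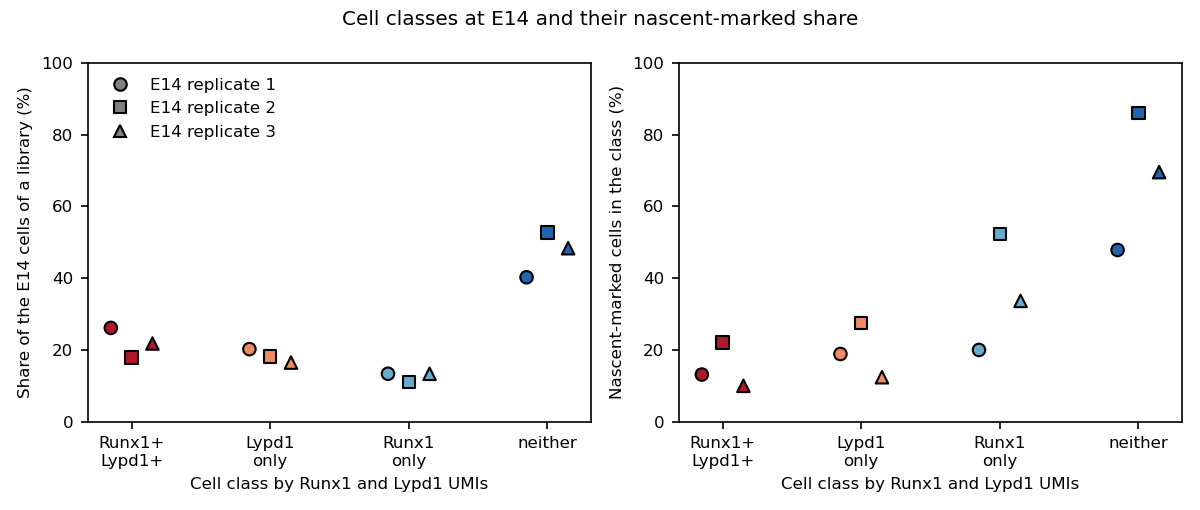
Share of the cells of each E14 library in each class (left, %) and share of nascent-marked cells within each class (right, %), with one symbol per replicate and classes by Runx1 and Lypd1 UMIs. Nascent-marked cells lie at 10.0 to 22.1% of the Runx1+ Lypd1+ cells and at 47.9 to 86.0% of the cells with neither.

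Both defining genes were rarer in nascent-marked cells. A Runx1 UMI was found in 17.1% of the 692 nascent-marked cells and in 48.4% of the 945 others, and a Lypd1 UMI in 14.9% and 59.0%. Thinned to 2500 UMIs, with 37 and 9 shallower cells left out, the shares were 7.63% and 27.8% for Runx1 and 9.77% and 42.8% for Lypd1. The median depths of these groups were 4362 and 5303 UMIs. Hbb-bs, a haemoglobin gene that neurons are not expected to make, was found in 62.6% and 62.3% of them. After thinning its shares were 43.1% and 37.1%. Its level varied between libraries, so it is no measure of how depth acts on genes that neurons make. The part of depth in the Runx1 and Lypd1 shares was not tested.

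Against all cells with neither gene, Runx1+ Lypd1+ cells differed in 1397 of 8531 genes tested, or 16.4%, with 673 higher (7.89%) and 724 lower (8.49%). The test was edgeR's quasi-likelihood test on counts summed per library and class, with the library as a block and an adjusted p under 0.05 as the threshold. When nascent-marked cells were left out of every class, 53 of 7225 genes, or 0.734%, passed, of which 22 were higher (0.304%) and 31 lower (0.429%). Among genes tested both ways, those that passed with all cells had a median absolute log2 difference of 0.614, and the same genes had 0.199 without nascent-marked cells. These genes were chosen for passing with all cells, which favours a smaller difference in the other setting. Fewer cells were also left to compare: cells with neither gene fell from 766 to 246, and from 200 to 28 in replicate 2. Depth moved with the classes as well, and between cells matched on depth within 10% in the same library 526 genes passed (6.37%). Matching left 108, 59 and 127 cells of each compared class in replicates 1 to 3, so fewer cells were compared there too.

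The genes that were lower in the members were led by genes of newborn neurons. By a rule on size, level and lack of overlap between libraries, the 12 named were Insc, Ppp1r17, Ndrg1, Neurod2, Mfap4, Actc1, Neurod6, Mfng, Ccdc88b, Stk33, Pdlim4 and Rd3. Insc, an adaptor of the spindle orientation machinery, had 0 counts in the members against 25.0, 57.5 and 43.8 CPM in cells with neither gene, at least 34.2-fold lower by a floor of 3 counts over all members. Neurod2, a neurogenic transcription factor, stood at 2.20, 6.33 and 0.960 CPM in members and at 31.2, 78.4 and 52.1 CPM in cells with neither (log2 difference -4.28, SE 0.38, edgeR adjusted p = 4.57e-12). The 10 tested genes of the nascent-neuron list were all lower, with a median log2 difference of -3.58 beside 0.01 over all genes tested, and since Neurod1 and 4 others also define nascent-marked cells this restates the difference in class makeup. After leaving out nascent-marked cells, 0 of the 12 named lower genes reached the count needed for testing. For Ppp1r17 and Mfap4 the loss of counts follows from the definition of these cells. The other named genes were chosen for large differences from a class that was 67.9% nascent-marked, so this is a description only. Neurod2 then had 0 counts in the members and stood at 0, 0 and 1.82 CPM in cells with neither.

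The genes that were higher included an ion channel, a glutamate receptor and an adhesion molecule. The 12 named were Kcnma1, Pcsk5, Gria3, Dytn, Cntn5, Lypd6, Prkcb, Dlgap1, Aldh1a3, Nmrk1, Rgs6 and Sema3e, beside Pvalb and Lgals1, which were given with the cells as their markers. Pvalb, a calcium buffer of fast-firing neurons, stood at 2195, 2093 and 2503 CPM in members and at 1109, 346 and 827 CPM in cells with neither (log2 difference 1.57, SE 0.12, edgeR adjusted p = 9.40e-14). Lgals1 stood at 432, 329 and 536 CPM against 161, 82.5 and 128 CPM, without overlap. Gria3, an AMPA-type glutamate receptor subunit, stood at 33.0, 23.2 and 48.0 CPM against 7.28, 3.13 and 12.2 CPM. Kcnma1, the pore of the large-conductance calcium-activated potassium channel, stood at 24.2, 16.9 and 25.9 CPM against 6.24, 2.09 and 4.50 CPM. In these genes the members were higher in each library, and replicate 2 was the lowest of the 3 in cells with neither. Nascent-marked cells were 86.0% of that class in replicate 2, and a link between this share and the levels was not tested.

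Of these 14 higher genes, 13 could be tested without nascent-marked cells and 8 passed again. Pvalb was then 2308, 2398 and 2603 CPM in members against 1808, 1474 and 1980 CPM (log2 difference 0.42, edgeR adjusted p = 4.95e-05), so its difference was smaller and the groups still did not overlap. Lgals1 was 455, 402 and 567 CPM against 230, 105 and 251 CPM (log2 difference 1.18, edgeR adjusted p = 6.00e-10). Cntn5, an adhesion molecule of the contactin family, was 466, 471 and 539 CPM against 294, 97.8 and 376 CPM (log2 difference 0.79). Nmrk1, a nicotinamide riboside kinase, was 149, 98.9 and 86.2 CPM against 87.4, 55.9 and 27.2 CPM (log2 difference 1.02), higher in each library although the ranges overlapped. Prkcb, Dlgap1, Sema3e and Lypd6 were the other 4 that passed. Kcnma1 was 26.1, 24.0 and 28.7 CPM against 10.7, 6.99 and 9.08 CPM (log2 difference 1.43), did not overlap, and missed the threshold (edgeR adjusted p = 0.15), as did Gria3, Dytn, Aldh1a3 and Rgs6.

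**Figure D2:**
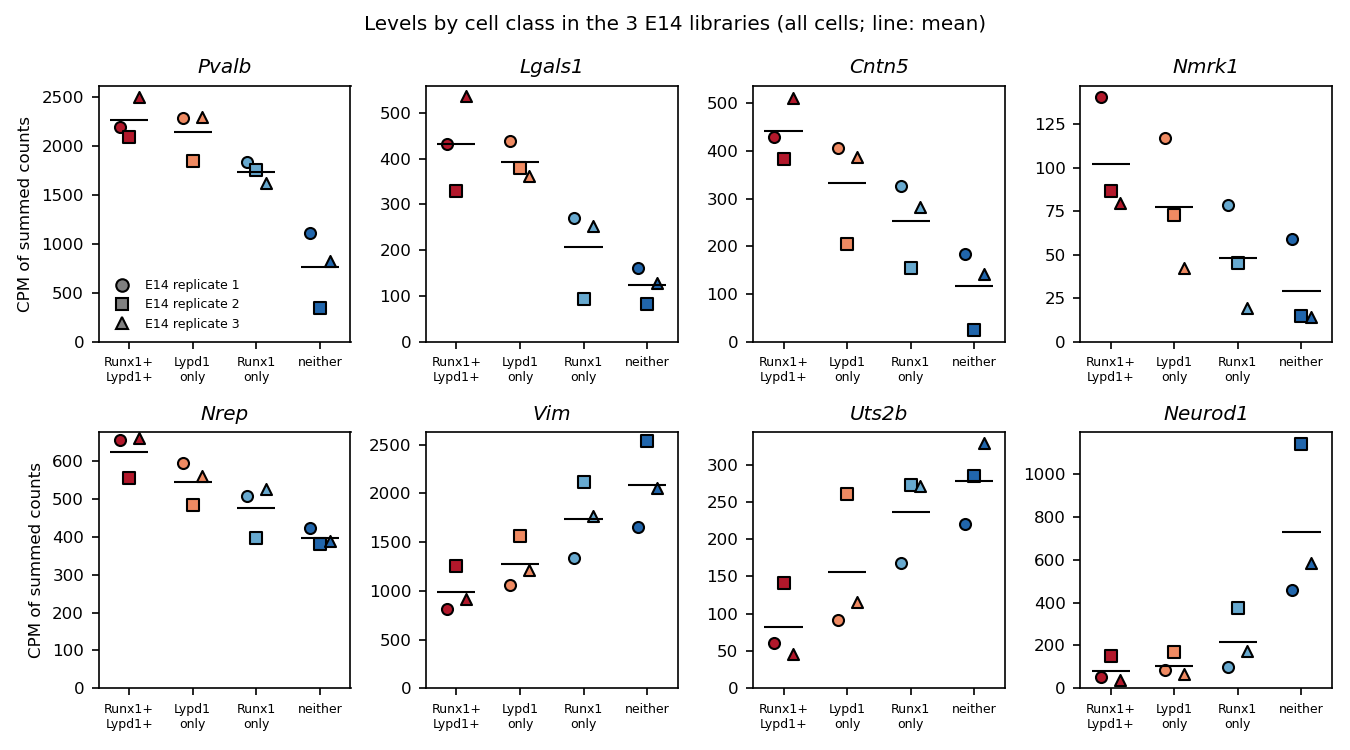
CPM of summed counts for 8 genes in the 4 classes of E14 cells, one symbol per replicate and a line at the mean. Lgals1 lies at 329 to 536 CPM in Runx1+ Lypd1+ cells and at 82.5 to 161 CPM in cells with neither, and Neurod1 and Vim run the other way.

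The 53 genes that passed without nascent-marked cells were few and of mixed kinds. They are named here after their values were seen. Some difference in age markers and depth was left: the nascent-neuron list summed to 140 to 231 CPM in members and 237 to 391 CPM in cells with neither, at medians of 5542 and 4990 UMIs, and its part in the result was not tested. Besides Lgals1, Pvalb, Cntn5, Nmrk1 and Prkcb, the higher ones included Nrep, a regulator of neuronal differentiation, Foxp1, a forkhead transcription factor, Mdga1, an adhesion molecule that binds neuroligins, Meg3, a long non-coding RNA, and Zbtb20, a zinc-finger repressor. Nrep stood at 695, 653 and 674 CPM in members and at 483, 314 and 485 CPM in cells with neither (log2 difference 0.58, edgeR adjusted p = 1.21e-05). Foxp1 stood at 456, 584 and 435 CPM against 275, 426 and 309 CPM (log2 difference 0.58). Neither gene overlapped between the groups.

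Among the lower ones, Uts2b, a peptide of the urotensin family, had the smallest adjusted p: it stood at 36.5, 86.9 and 23.2 CPM in members against 159, 307 and 174 CPM (log2 difference -2.31, SE 0.21, edgeR adjusted p = 1.13e-12). Vim, an intermediate filament of progenitors and young neurons, stood at 715, 878 and 786 CPM against 1054, 2180 and 1138 CPM (log2 difference -0.77). Ppp1r14a, an inhibitor subunit of myosin phosphatase, stood at 10.4, 24.0 and 14.4 CPM against 35.7, 105 and 70.8 CPM (log2 difference -2.10). In each of these genes every member value lay below every value of cells with neither. Gap43, a growth cone protein, fell by 0.39 on the log2 scale with ranges that overlapped, and Grin2a, an NMDA receptor subunit, by 1.59. Haemoglobin genes Hbb-y, Hbb-bs and Hba-a1 were also among the 31 and differed in which library held the gap. Hbb-y was 45.6, 17.98 and 19.9 CPM in members against 1410, 34.9 and 29.0 CPM, a gap mainly in replicate 1, and it did not pass without that replicate. Hbb-bs was 207, 734 and 124 CPM against 284, 251 and 1712 CPM, so that the gap was largest in replicate 3, without which it did not pass, and ran the other way in replicate 2. The red blood cell list as a whole summed to 394, 1843 and 211 CPM in members against 2017, 391 and 2668 CPM.

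The size of this smaller set depended on the libraries and on the test. It was 19, 67 and 13 genes without replicates 1, 2 and 3, 10 by DESeq2 and 4 with no library block, and replicate 2 held 28 of the 246 cells with neither gene that were not nascent-marked. Cells matched for depth as well gave 35 genes (0.484%), and leaving out any cell with a UMI of the 5 nascent genes gave 17 (0.261%). Across these 7 further settings, Lgals1 and Uts2b passed in all 7, and Nrep and the ferritin row Fth1.1 in 6. Pvalb, Vim and Cntn5 passed in 5, Foxp1 and Nmrk1 in 4, Zbtb20, Mdga1, Prkcb and Chgb in 3, Dlgap1 in 2, Sema3e, Meg3 and Kcnab1 in 1 and Lypd6 in 0. The plot of differences with and without nascent-marked cells shows each gene in both settings.

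**Figure D3:**
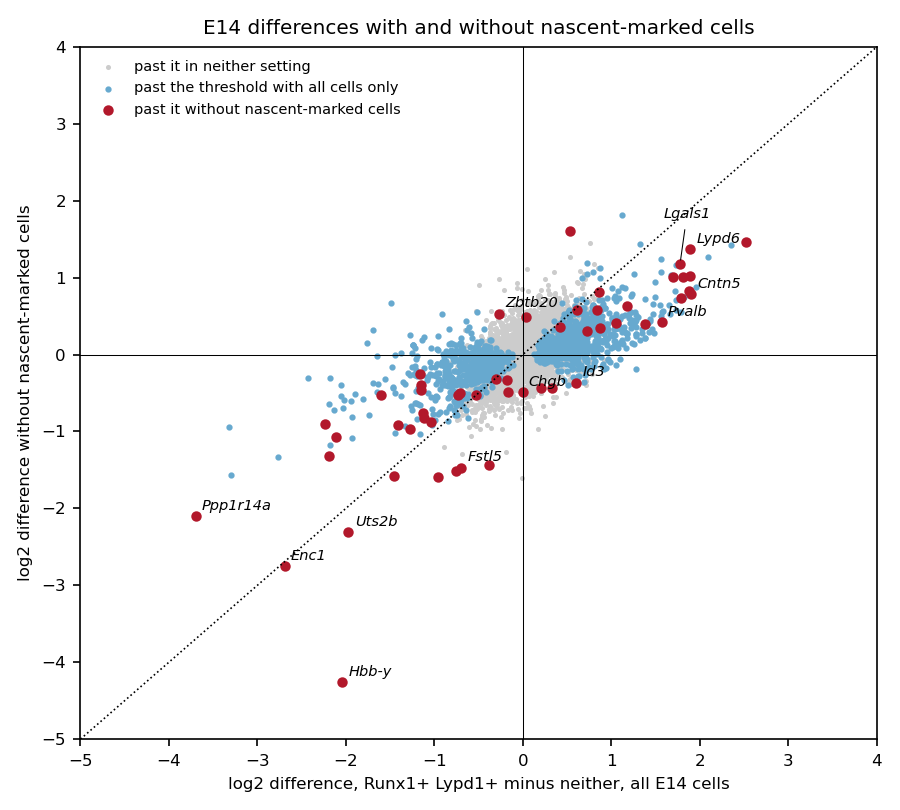
Log2 difference of Runx1+ Lypd1+ cells from cells with neither gene, with all E14 cells (horizontal) and without nascent-marked cells (vertical), one point per gene tested both ways (7223) and the dotted line at equality. Genes past the threshold without nascent-marked cells are red, with Lgals1 at 1.18 and Uts2b at -2.31 on the vertical axis.

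Some genes changed direction between these settings. Zbtb20 was lower in the members with all cells, at 311, 435 and 330 CPM against 337, 491 and 420 CPM (log2 difference -0.26, edgeR adjusted p = 0.018), and higher without nascent-marked cells, at 314, 420 and 323 CPM against 191, 265 and 254 CPM (log2 difference 0.53, edgeR adjusted p = 0.0058). Id1 and Id3, targets of BMP signalling that restrain helix-loop-helix factors, went the other way. Id3 had a log2 difference of 0.61 with all cells and -0.36 without nascent-marked cells. These were the 3 genes that passed in opposite directions.

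Gene groups were counted with all cells and again without nascent-marked cells, beside the background shares of 16.4% and 0.734%. Of 42 neuronal transcription factors tested, 12 were higher and 20 lower with all cells (median log2 difference -0.22), and 0 of 34 passed in either direction without nascent-marked cells. The higher ones included Casz1 (log2 difference 0.79), Gata3 (0.53) and Meis2, and the lower ones Nhlh1 (-3.45), Nfib (-3.18) and Isl1 (-1.22), which specifies sensory neurons. Of 19 genes of cholesterol synthesis, 13 were lower and 0 higher (median -0.83), among them Hmgcs1 at 149, 190 and 144 CPM in members against 289, 339 and 274 CPM. Of 15 tested without nascent-marked cells, 0 passed, and Hmgcs1 was 135, 153 and 140 CPM against 162, 168 and 189 CPM.

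Receptor and channel genes gave a similar picture. In the list of Ly6 proteins and nicotinic receptors, 5 of 7 tested besides Lypd1 were higher with all cells and 1 lower. The higher ones were the Ly6 proteins Lypd6 (log2 difference 1.89), Lypd6b (1.34) and Ly6h (0.64) and the receptor subunits Chrna4 (1.01) and Chrnb2 (0.81), which together form a common neuronal nicotinic receptor, while the subunit Chrna3 was lower (-1.84). Without nascent-marked cells Lypd6 passed, at 40.4, 51.0 and 43.1 CPM against 16.04, 6.99 and 20.0 CPM (log2 difference 1.37, edgeR adjusted p = 0.021), a call that was lost in each of the 7 further settings, and 0 of the other 5 tested passed. Of 13 voltage-gated potassium channel genes, 5 were higher and 3 lower with all cells, and of 17 sodium, HCN and calcium channel genes 4 were higher and 0 lower. Without nascent-marked cells 1 potassium channel gene, Kcnab1, was lower and 0 of 13 sodium, HCN and calcium channel genes passed.

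A list of RUNX and core binding factor genes, corepressors and other cofactors was counted next. A place on it does not show that a gene's product binds Runx1. Among the 8 list genes tested, the Groucho corepressors Tle3 (log2 difference -2.40) and Tle1 (-0.87) were lower, and Tle4 (0.47), another of them, was higher. Runx1t1 (-0.39) was also lower and Zfpm1 (0.62) higher. Without nascent-marked cells, 0 of 6 tested genes of this list passed. Of 26 axon guidance genes 7 were higher and 9 lower, with Nrp2 (-3.50) and Robo2 (-2.63) among the lower and Plxna4 (1.21) among the higher, and of 25 adhesion genes 7 were higher and 5 lower. Without nascent-marked cells, Sema3e and Cntn5 were the only members of these 2 lists to pass.

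Members were also compared with the cells that had 1 of the 2 defining genes. For 20 of the 26 named genes the mean level in cells with Lypd1 only was nearer to the members than that in cells with Runx1 only, which is given as a description, since the genes were chosen for their difference between the members and the cells with neither. Against cells with Lypd1 only, 1 of 8531 genes passed (0.0117%), with 455 at an unadjusted p under 0.05. That gene was Vim, at 812, 1249 and 911 CPM in members and 1056, 1560 and 1215 CPM in cells with Lypd1 only (log2 difference -0.39, edgeR adjusted p = 7.2e-05), lower in each library with overlapping ranges. Without replicate 3, 0 genes passed. Lgals1 was 438, 379 and 362 CPM in cells with Lypd1 only, and its log2 difference from the members was 0.13 (SE 0.12).

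Against cells with Runx1 only, 77 genes passed (0.903%), 17 higher and 60 lower. The named higher genes were Meis2, Nmrk1, Lgals1, Sema3e and Cntn5, and the named lower genes were Helt, Grin3a, Kcnip4, S100a13 and Anxa2. Lgals1 was 271, 94.3 and 253 CPM in cells with Runx1 only, below every member value (log2 difference 1.03, SE 0.14, edgeR adjusted p = 3.32e-06). Grin3a, an NMDA receptor subunit of immature neurons, was 6.59, 16.9 and 5.76 CPM in members against 19.7, 90.8 and 41.0 CPM (log2 difference -2.40). Nascent-marked cells were 32.9% of the cells with Runx1 only and 13.4% of the members. Without them 9 genes passed, 4 higher, among them Lgals1, Nmrk1 and Eif6, and 5 lower (Vim, Uts2b, Tac1, Itm2b and Tmsb4x), and without the library block 0 passed with all cells. Omitting replicate 3 left 13 genes and omitting replicate 1 left 44.

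A few members also carried the genes of another small E14 group. Of the 42 cells with both Grxcr1, a glutaredoxin-like protein of hair cell bundles, and Meis2, a homeobox factor, 24 were Runx1+ Lypd1+ cells. Lgals1 stood at 578, 911 and 923 CPM in these 24 cells, above the level of the members as a whole in each library, and Uts2b at 0, 52.0 and 0 CPM. These 24 cells were then left out of the members, leaving 130, 62 and 149 cells, which were compared with the 18 cells that had Grxcr1 and Meis2 but were not Runx1+ Lypd1+. In this comparison 1 of 4669 genes passed (0.0214%). It was Spp1, a secreted phosphoprotein (log2 difference 0.89, edgeR adjusted p = 0.021), whose libraries overlapped and which did not pass without replicate 1 or 2. Neurofilament genes Nefm and Nefl did not pass there, with log2 differences of 0.33 and 0.32. With so few cells, smaller differences were not detectable at this depth.

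The same classes were then compared in separate libraries of older animals. The E16 sums joined apical and basal cells, so classes were compared within replicate and not within library. In replicate 2 there were 221 apical and 87 basal double-positive cells against 149 and 260 with neither gene, at library medians of 6090 and 2769 UMIs. In replicates 1 and 3 they were 103 and 69 against 120 and 93, and 179 and 156 against 155 and 140. The part of region was not tested on its own. At E16 the double-positive cells were 815 of 2478 and at E18 and P1 together 322 of 862 and 206 of 464. They differed from cells with neither gene in 1415 of 10395 genes at E16 (13.6%) and in 1072 of 6713 at E18 and P1 (16%). At both, Pou4f1 led the higher genes. Its log2 difference was 3.21 (SE 0.12) at E16 and 6.49 (SE 0.32) at E18 and P1, against -0.08 (SE 0.08) at E14. The E16 members held Pou4f1 at 144, 232 and 217 CPM and the E16 cells with neither at 12.4, 33.9 and 20.1 CPM, and both ranges lay below the E14 values. The difference of the effect between E16 and E14 was 3.28 (edgeR adjusted p = 2.12e-26), where 14.8% of the 9899 genes tested passed. Efna5, an ephrin, and Th, which makes catecholamines and marks type II neurons, were among the named lower genes at E16 and at E18 and P1, and both were too low at E14 to be tested.

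The genes that passed at E14 without nascent-marked cells were looked up in these later libraries, in which all cells were used. Of the 22 higher genes, 15 were also higher at E16, where 7.24% of all genes tested were, and 2 were lower, where 6.37% were. At E18 and P1, 13 of 21 tested were higher (background 8.12%) and 3 lower (background 7.85%). Of the 31 lower genes, 10 of 29 tested were lower at E16 and 7 higher, and 10 of 21 were lower at E18 and P1 and 5 higher. With E16 cells matched on depth within each apical or basal library, 16 of the 22 higher genes were higher and 2 lower. In that setting 10 of 29 lower genes were lower and 5 higher (backgrounds 5.71% higher and 5.1% lower). Nmrk1 had log2 differences of 1.98 at E16 and 2.50 at E18 and P1, Nrep of 0.78 and 0.90, Foxp1 of 0.58 and 0.76, and Pvalb of 1.88 and 1.13, each past the threshold.

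Lgals1 did not keep its direction. Its log2 difference was 0.08 (SE 0.05) at E16, which did not pass, and -0.66 (SE 0.06, edgeR adjusted p = 3.05e-17) at E18 and P1, where it was lower in the double-positive cells. At E16 it stood at 1459, 1164 and 1310 CPM in the double-positive cells and at 1172, 1297 and 1329 CPM in cells with neither. Uts2b, lower at E14, had a log2 difference of 0.40 at E16 (edgeR adjusted p = 0.14) and was too low to be tested later. Cntn5 and Mdga1 passed at E16 and at E18 and P1 in the opposite direction to E14, with Cntn5 at -0.74 and -0.71. Chgb, a granin of secretory vesicles, was lower in the members at E14 without nascent-marked cells (log2 difference -0.49) and higher at E16 (0.79) and at E18 and P1 (0.74). Id1 was lower at E16 (-1.08) and at E18 and P1 (-1.97), and at E14 it was lower without nascent-marked cells (-0.43) and higher with all cells (0.33). Genes of the type II list were lower in the double-positive cells at E16 (5 of 6) and at E18 and P1 (6 of 6), where 0 of 5 passed at E14 without nascent-marked cells.

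**Figure D4:**
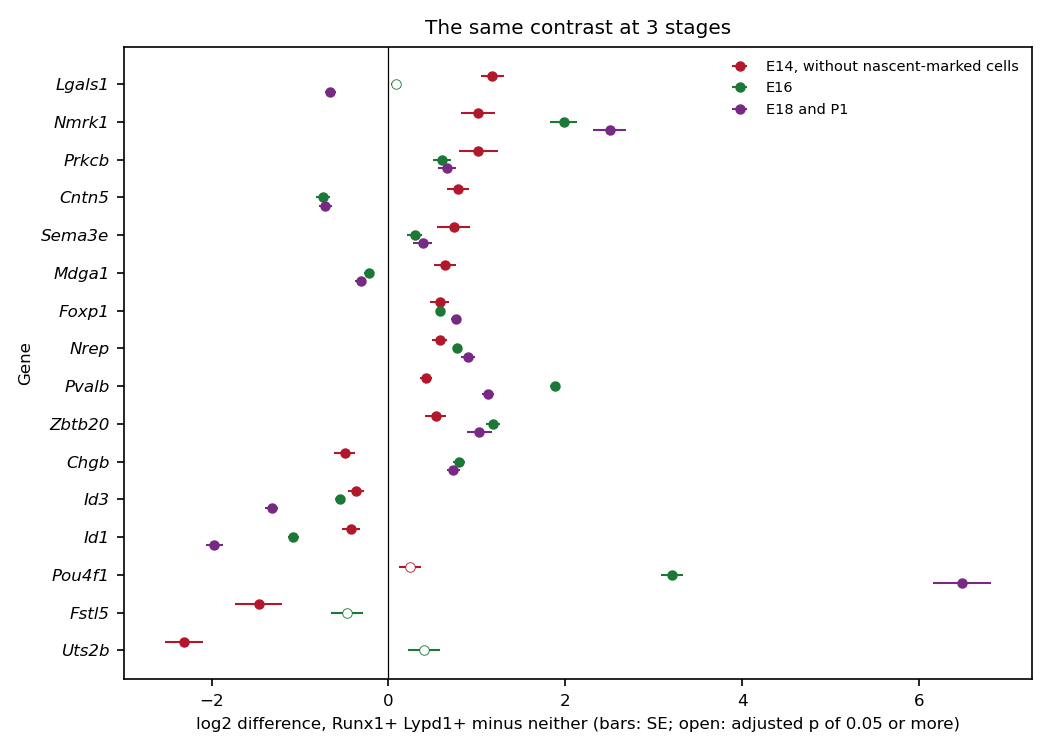
Log2 difference of Runx1+ Lypd1+ cells from cells with neither gene for 16 genes, at E14 without nascent-marked cells, at E16, and at E18 with P1 (bars are SE, open points have an adjusted p of 0.05 or more). Nmrk1, Nrep, Foxp1 and Pvalb lie above 0 at the 3 stages, Lgals1 crosses to -0.66, Pou4f1 reaches 6.49, and Fstl5 and Uts2b were not tested at E18 and P1.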

How the data were processed

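Single cells of 14 libraries were measured with the 10x 3′ chemistry, and the authors aligned and counted them with Cell Ranger 3.0.1 and normalized them with Seurat 3.2 on mm10, per the submitters' processing notes. The deposited count table holds UMI counts for 17999 of 26655 genes. The deposited normalized table holds the natural log of 1 plus counts per 10000, and the counts of the other 8656 genes (28.2% of UMIs) were recovered from it, each whole within 0.001. The shared entries of both tables were identical. A cell's library was read from the number at the end of its name, taken to be the sample number of the descriptions, a link the labels leave unstated. The cells are those the authors deposited, and how they were filtered or treated for doublets is not given in the sources used here. No further filter or doublet caller was applied.

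Counts were summed per library and class. Sums at E16 join the apical and basal cells of a replicate, and the replicate was the block there. They were tested with edgeR 4.0.16 (TMM, filterByExpr, quasi-likelihood, library as block, Benjamini-Hochberg adjustment over all genes tested), after a check of the script on simulated data. CPM are counts per 1000000 UMIs of the sum. Members and cells with neither gene came from the same library, and their deviations correlated at 0.316, 0.321 and 0.278 within a library and between -0.25 and -0.0107 across libraries. Replicates were pools of separate litters. The named genes are, per direction, the 12 (5 in other comparisons) largest log2 differences among genes that passed, averaged 20 CPM or more in the higher class and did not overlap between libraries, plus Pvalb and Lgals1. Where fewer qualified, the genes of smallest p were taken. The members, the gene lists and the tests were chosen with earlier results of these data known. Alternatives comprised other scalings, filters, tests, depths and cell sets. A few genes are not reported here.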

Additional observations from a re-analysis of the deposited data

Results flagged for a closer look

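For 20 of the 26 named genes the difference between Runx1+ Lypd1+ cells and cells with neither gene was itself different at E16 and E14 (edgeR, adjusted p under 0.05), where 14.8% of 9899 genes passed. The genes were chosen mainly for large differences at E14, which favours smaller differences at E16, so their number and shared direction support nothing. Insc, with 0 counts in the E14 members, is one of the 20 and is given no value. The values here are the log2 difference at E16 minus that at E14. At E16 apical and basal cells were summed together, in shares that differed between classes. Among the genes that were higher in the E14 members it was -2.32 for Kcnma1, -1.56 for Pcsk5, -1.47 for Gria3, -2.59 for Cntn5, -1.29 for Prkcb, -1.89 for Dlgap1, -1.69 for Aldh1a3, -2.76 for Rgs6, -1.50 for Sema3e and -1.70 for Lgals1. Of these, Pcsk5, Gria3, Prkcb and Sema3e were still higher at E16, and Cntn5 and Rgs6 were lower there.

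Among the genes that were lower in the E14 members the difference of effects was 3.13 for Ppp1r17, 5.36 for Ndrg1, 4.67 for Neurod2, 3.71 for Mfap4, 4.63 for Actc1, 4.68 for Neurod6, 4.25 for Mfng, 3.77 for Stk33 and 3.43 for Pdlim4. These 9 genes had too few counts at E16 to be tested there. Nascent-marked cells were 67.9% of the E14 cells with neither gene and 3.60% of those at E16.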

How the results depend on the processing

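Counts of genes past the threshold moved by more than 1.5 times under some settings. For Runx1+ Lypd1+ cells against neither at E14 (1397) they were 590 by DESeq2, 526 with depth matched, 227 in cells of at least 5000 UMIs, 876 with thinned cells, 494 with classes set on thinned cells and 53 without nascent-marked cells, and 685 to 1180 without 1 replicate. Chosen after seeing the data, depth matching without nascent-marked cells gave 35, no nascent UMI 17, and the 53 became 10 by DESeq2, 4 with no replicate block, and 19, 67 and 13 without replicates 1, 2 and 3. Against Lypd1 only (1) the count was 11 unfiltered, 3 without nascent-marked cells and 0 to 7 without 1 replicate. Against Runx1 only (77) it was 25 by DESeq2, 9 without nascent-marked cells and 13 to 68 without 1 replicate. Against Grxcr1+ Meis2+ cells (1) it was 0 with RLE factors, 0 by DESeq2, 20 unfiltered and 0 to 1 without 1 replicate. At E16 (1415) it was 603 by DESeq2, 663 thinned and 878 to 1115 without 1 replicate. At E18 and P1 (1072) it was 678 by DESeq2 and 356 thinned, and the difference between ages (1468) was 882 by DESeq2.

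Without the replicate block, which pairs classes of one library, the counts were 651 for neither at E14, 0 for Lypd1 only, 0 for Runx1 only, 0 for Grxcr1+ Meis2+ cells, 445 at E16, 217 at E18 and P1 and 524 for the difference.

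Each of the 26 named genes kept its direction under each setting in which it was tested. Runx1 was 1 UMI in 55.1% of members, so the classes without it can hold cells in which it was missed, and genes under the count filter were not detectable at this depth.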
